A study of Mus musculus with 16 samples.

Results

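The constitutive proteasome is the protease complex that every cell uses to degrade proteins tagged with ubiquitin. Its genes were followed here in mouse cerebral cortex after injection of adeno-associated virus (AAV), which delivers a construct to cells. The members were the genes of the deposited table whose symbols start with Psma to Psmg and a number, without the immunoproteasome genes Psmb8, Psmb9 and Psmb10. Of 45 such symbols, 43 reached 10 counts in at least 4 libraries and form the set, out of 55359 genes in the table. The other 2, Psma8 and Psmb11, which are known from testis and thymus, had at most 8 counts in any library. The 16 libraries of bulk RNA sequencing formed 4 groups of 4. All groups received AAV, and each is named by its construct: ATG-GGN100dCT, ATG-GGC100, TAG-GGC100 and ATG-GGC11. GGC is a glycine codon repeated 100 or 11 times, GGN stands for any glycine codon, and the names start with the codon at the start position, the start codon ATG or the stop codon TAG. The meaning of dCT, the promoter and serotype of the virus, and the strain, sex and age of the mice were not described in the sources used here. For this series the question was how polyG proteins, the glycine chains that such repeats encode, alter the cortical transcriptome in neuronal intranuclear inclusion disease, a neurodegenerative disease with ubiquitin-positive inclusions in cell nuclei.

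The 26S proteasome consists of a barrel, the 20S core, and a cap, the 19S particle. The core stacks rings of alpha and beta subunits, and 3 of the beta subunits cut proteins. The cap binds ubiquitin chains, removes them and feeds the unfolded substrate into the core with a ring of ATPases. When proteasomes are blocked, the transcription factor Nfe2l1 raises many of these genes together, while interferon replaces the cutting subunits with those of the immunoproteasome and raises the PA28 activator. Inclusions of misfolded proteins in neurons often hold ubiquitin and proteasomes.

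Library totals were 12838756 to 19131210 counts, and the 43 genes together took 0.276% to 0.326% of them. Reads of the construct sequences took at most 0.00714% of a library. They were 0.000878% to 0.00363% in ATG-GGN100dCT, 0.000262% to 0.000543% in ATG-GGC100, 0.00107% to 0.00158% in TAG-GGC100 and 0.00358% to 0.00714% in ATG-GGC11. The 8 markers of neurons, such as Snap25 and Rbfox3, were detected in every library, and their summed level was 1171 to 1222 FPKM in ATG-GGN100dCT, 1147 to 1233 FPKM in ATG-GGC100, 1208 to 1325 FPKM in TAG-GGC100 and 1237 to 1277 FPKM in ATG-GGC11. FPKM are the authors' values, in which counts are divided by exonic length and by the library total. They lack the TMM scaling between libraries that the test below uses. Its factors were 1 to 1.04 in ATG-GGN100dCT, 1 to 1.03 in ATG-GGC100, 0.984 to 0.992 in TAG-GGC100 and 0.973 to 0.992 in ATG-GGC11. Where the factor is larger, FPKM are high beside the scale of the test. In whole tissue, fewer cells of a type and less RNA per cell cannot be told apart.

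All 43 genes were expressed in every library, at levels that differed far more between genes than between constructs. The highest was Psmc5, an ATPase of the 19S base, with a mean of 108 FPKM and a range of 92.7 to 120 FPKM over the 16 libraries. It was followed by another base ATPase gene, Psmc1, with 79.3 FPKM, and by Psmb5, the subunit that cuts after hydrophobic residues, with 66 FPKM. The lowest was Psmg3, a chaperone that helps assemble the core, with a mean of 2.33 FPKM and a range of 1.72 to 3.41 FPKM. The thinnest data stood behind the chaperone gene Psmg4, with 39 to 77 counts a library. The ratio of the highest to the lowest library ran from 1.14 for Psme3, a nuclear activator subunit, to 1.98 for Psmg3.

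**Figure D1:**
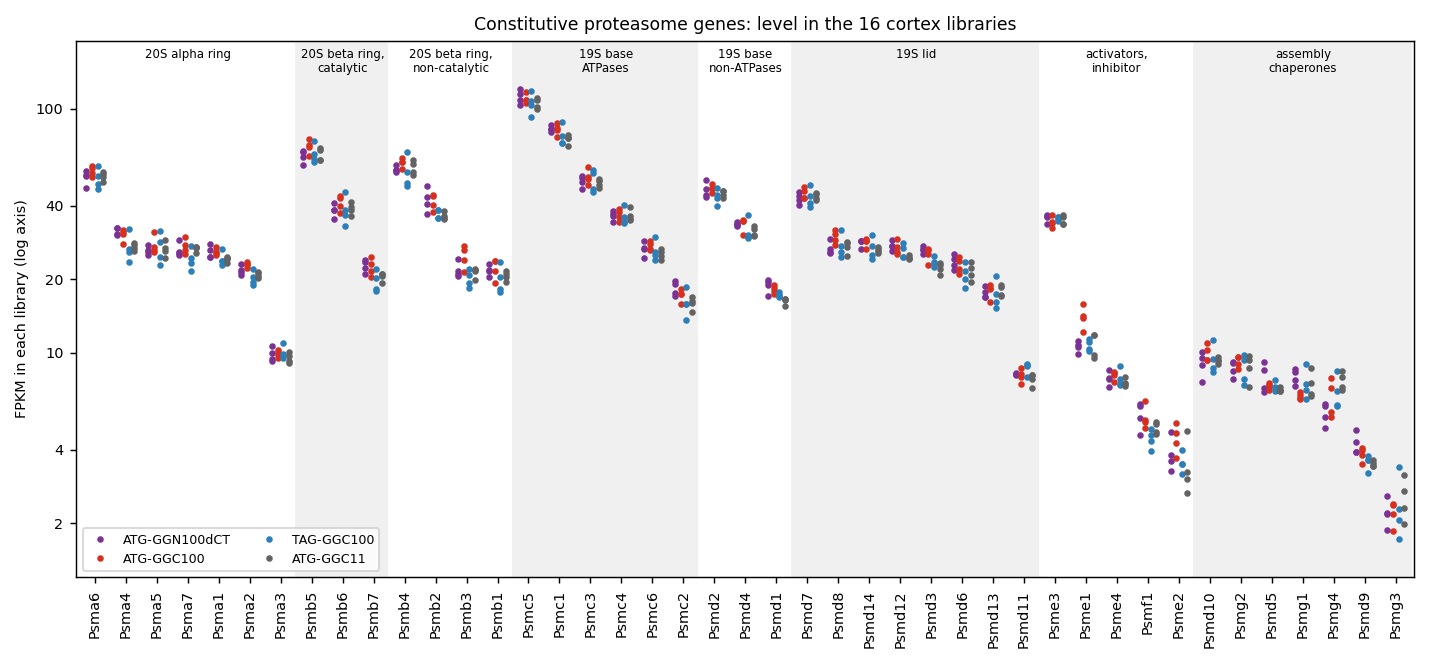
Level of each of the 43 genes in each of the 16 libraries, in FPKM on a log axis, grouped by role and sorted by mean within a role; points are libraries, colored by construct. The 4 constructs overlap for most genes, while genes range from Psmg3 at 1.72 FPKM to Psmc5 at 120 FPKM.

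The shares of the parts of the complex in the summed FPKM differed little between groups for most parts. The 6 base ATPases held a mean of 27.2% of the summed FPKM of the set in ATG-GGN100dCT, 26.7% in ATG-GGC100, 27.2% in TAG-GGC100 and 26.8% in ATG-GGC11. The 7 alpha ring genes held 16.2%, 16.3%, 16.1% and 16.4% in the same order. The 3 catalytic beta genes held 10.4%, 10.9%, 10.8% and 10.8%. The lid, the outer part of the 19S cap, held 16.8%, 16.7%, 16.9% and 16.7% over its 8 genes. The non-catalytic beta genes held 11.9%, 12.1%, 11.5% and 11.8%, the base genes other than ATPases 8.25%, 8.09%, 8.09% and 8.06%, and the activators and inhibitor 5.32%, 5.42%, 5.45% and 5.37%. The assembly chaperones held 3.81%, 3.74%, 3.96% and 4.02%. Their share in ATG-GGC100, at 3.65% to 3.86%, did not overlap that in ATG-GGC11, at 3.94% to 4.11%, or in TAG-GGC100, at 3.9% to 4.12%. Their summed level did overlap, at 42.3 to 47.9 FPKM in ATG-GGC100 and 43.7 to 48.6 FPKM in ATG-GGC11. The mean sum of the whole set was largest in ATG-GGC100, but share and sum did not go together in every library. TAG-GGC100 replicate 4 had a sum of 1282 FPKM and a chaperone share of 4.12%. ATG-GGC100 replicate 4 had 1154 FPKM and 3.66%. The lower share was singled out from 8 parts, and its reason was not tested. The summed level of all 43 genes was 1197 ± 28.9 FPKM in ATG-GGN100dCT, 1222 ± 47.3 FPKM in ATG-GGC100, 1146 ± 98.8 FPKM in TAG-GGC100 and 1147 ± 40.9 FPKM in ATG-GGC11 (SD, n = 4 each).

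In 3 of the 4 groups, single libraries held most of the highest or lowest values of the genes. TAG-GGC100 replicate 4 held the highest FPKM of its group for 36 of 43 genes and summed to 1282 FPKM, against 1064 to 1156 FPKM in the other TAG-GGC100 libraries. Its median deviation from the group mean was 0.169 on the log2 CPM scale (CPM are counts scaled to the library size) over the 43 genes, against 0 over all genes tested. TAG-GGC100 replicate 2 lay on the other side, with a median deviation of -0.089 and only 3 genes above the group mean. ATG-GGC100 replicate 4 held the lowest FPKM of its group for 32 genes and the highest for 0, with a median deviation of -0.093. In ATG-GGC11, replicate 1 was lowest for 29 genes. In ATG-GGN100dCT no library stood out in this way: the median deviations lay between -0.026 and 0.029, and 16 to 29 genes were above the group mean in a library. Medians of the set are therefore given below with and without the libraries that moved them most. Their origin was not tested.

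The members varied between libraries of a group about as much as other genes of their level. The biological coefficient of variation (BCV, the relative SD between libraries beyond counting error, here for each gene from the edgeR fit) had a median of 0.0763 over the 43 genes and ran from 0.0604 for the alpha ring gene Psma2 to 0.165 for Psmg3. Over all 17737 genes tested the median was 0.113, and over the 11574 other genes within the members' range of expression it was 0.0945. Most members are well expressed, and among genes at a mean log2 CPM of about 5.53 to 7.286 the median BCV was 0.0762 to 0.0804. The largest values belonged to the low genes Psmg3, Psme2 and Psmg4.

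**Figure D2:**
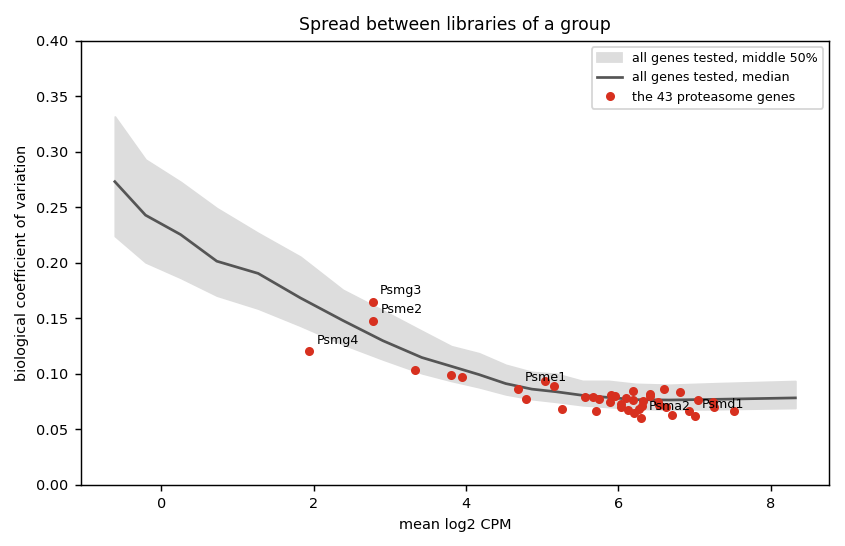
Biological coefficient of variation against mean expression in log2 CPM; red points are the 43 genes, the line and band are the median and the middle 50% of all genes tested at each level. Most members lie close to the line for genes of their level, with Psmg3 at 0.165 and Psma2 at 0.0604 as the ends of their range.

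The short stretch around the start of transcription is shown for 4 members that were chosen by their test results. Psme1 and Psmb3 passed a test, while Psme2, the partner of Psme1, and Psmb5, a catalytic subunit, did not. Psmd3, which also passed a test, had no promoter among those given. Chosen in this way, the 4 promoters cannot show a motif difference between called and uncalled members. Each sequence runs from 250 bases before the start to 50 bases after it, 5′ to 3′ on the gene's strand, as given by RefSeq on the build GRCm38.p6. Psme2 has 2 starts in the table, of which the first listed is shown. Capitals mark every match on either strand to any of 4 motifs: TGANNNNGC, the core of the element bound by Nfe2l1 and Nfe2l2; CCAAT, bound by NF-Y; GAAANNGAA, the core of the interferon-stimulated response element; and TTCNNNGAA, the interferon-gamma activated site.
Psme1, chr14:55578244-55578543 (plus strand): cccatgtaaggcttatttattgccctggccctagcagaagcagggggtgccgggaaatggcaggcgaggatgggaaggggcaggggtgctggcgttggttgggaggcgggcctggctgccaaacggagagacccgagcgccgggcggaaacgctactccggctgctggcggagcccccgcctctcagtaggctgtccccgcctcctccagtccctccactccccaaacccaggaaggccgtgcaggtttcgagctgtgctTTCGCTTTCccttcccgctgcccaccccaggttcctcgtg
Psme2, chr14:55591052-55591351 (minus strand): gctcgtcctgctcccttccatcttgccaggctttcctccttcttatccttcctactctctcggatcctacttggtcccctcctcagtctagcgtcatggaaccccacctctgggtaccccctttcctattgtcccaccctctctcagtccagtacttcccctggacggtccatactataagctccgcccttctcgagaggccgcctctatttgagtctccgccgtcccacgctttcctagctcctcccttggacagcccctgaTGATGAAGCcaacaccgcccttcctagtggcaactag
Psmb3, chr11:97703184-97703483 (plus strand): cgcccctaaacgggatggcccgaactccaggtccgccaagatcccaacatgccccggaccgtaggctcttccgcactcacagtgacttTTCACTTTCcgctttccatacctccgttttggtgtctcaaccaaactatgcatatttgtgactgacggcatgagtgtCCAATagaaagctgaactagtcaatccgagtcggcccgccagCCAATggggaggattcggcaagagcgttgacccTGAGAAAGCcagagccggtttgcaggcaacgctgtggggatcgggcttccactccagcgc
Psmb5, chr14:54617946-54618245 (minus strand): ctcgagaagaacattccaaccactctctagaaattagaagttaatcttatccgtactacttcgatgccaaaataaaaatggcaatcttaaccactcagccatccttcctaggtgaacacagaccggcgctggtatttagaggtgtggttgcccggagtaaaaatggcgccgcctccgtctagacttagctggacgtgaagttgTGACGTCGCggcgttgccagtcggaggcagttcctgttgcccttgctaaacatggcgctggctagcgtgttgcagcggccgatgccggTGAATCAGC

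Psme1 had 1 match, to GAAANNGAA on the minus strand, 10 to 18 bases after the start. Psme2 had 1 match to TGANNNNGC, 13 to 21 bases after the start. Psmb3 had a TGANNNNGC match beginning 10 bases before the start, CCAAT matches 85 and 43 bases before it, and a GAAANNGAA match on the minus strand 162 bases before it. Psmb5 had TGANNNNGC matches 47 bases before the start and 41 to 49 bases after it, with no match to the other motifs. A promoter was in the table for 36 of the 43 members. TGANNNNGC was found in 20 of these (55.6%), against 45% of 27025 genes with promoters. CCAAT was found in 12 (33.3%, against 41.1%), GAAANNGAA in 7 (19.4%, against 9.76%) and TTCNNNGAA in 2 (5.56%, against 9.55%). A match is a run of letters in this window and shows no binding.

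The 43 genes were then compared between the constructs with edgeR's quasi-likelihood test on counts, which was fitted to all 17737 genes and 16 libraries, with p-values adjusted by the Benjamini-Hochberg method over all genes. A gene was called at an adjusted p under 0.05. Over the 6 comparisons, calls were made for 3 of the 43 genes: Psme1, Psmb3 and Psmd3. The comparisons share libraries, so their values are given side by side and are not independent.

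For ATG-GGC100 against ATG-GGC11, the long against the short repeat, 1 member was called higher, against a background of 2.20% of all genes, and 0 lower, against 1.30%. At an unadjusted p under 0.05, 3 members (6.98%) were higher and 0 lower, against 8.70% and 8.01% of all genes. DESeq2 called 1 member higher and 0 lower. FPKM ranges of both groups did not overlap for 5 members that were higher (Psma1, Psma2, Psmd1, Psmd12 and Psme1) and 0 that were lower, where 8.09% and 3.22% of all genes did so. Without the scaling of the test, FPKM favour higher values in ATG-GGC100 here. These 5 members therefore need not all separate on the scale of the test. The median log2 fold change was 0.057 over the members and -0.001 over all genes, and it was above 0 for 35 of 43 members (81.4%), against 49.6% of all genes. Leaving out single libraries moved the median between 0.032, without ATG-GGC11 replicate 1, and 0.084, without ATG-GGC100 replicate 4. The 95% interval of the fold change lay within 1.5-fold of no change for 40 of 43 members, against 64.3% of all genes.

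For TAG-GGC100 against ATG-GGC11, 0 members were called in either direction, by edgeR and by DESeq2, where 0% of all genes were called higher and 0.00564% lower. At an unadjusted p under 0.05, 1 member was higher and 0 lower, against 3.44% and 3.43% of all genes. The member was Psmd11, a lid gene, at 8.85, 8.94, 7.91 and 9.02 FPKM in TAG-GGC100 and 7.16, 8.07, 7.83 and 8.09 FPKM in ATG-GGC11 (log2 fold change 0.15 ± 0.065, SE; adjusted p = 0.65). Ranges did not overlap for 1 member that was higher, Psmd1, and for 0 that were lower, against 2.14% and 1.96% of all genes. The median log2 fold change was 0 over the members and -0.003 over all genes. All 43 intervals lay within 1.5-fold of no change, against 67.5% of all genes. Without TAG-GGC100 replicate 4, the median of the members was -0.065 and 9 of 43 were above 0, and without TAG-GGC100 replicate 2 it was 0.038 with 32 above 0.

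For ATG-GGN100dCT against ATG-GGC11, 1 member was called higher, against 3.17% of all genes, and 0 lower, against 3.49%. At an unadjusted p under 0.05, 5 (11.6%) were higher and 1 (2.33%) was lower, against 11.9% of all genes in each direction. Ranges did not overlap for 7 members that were higher (Psma4, Psmc1, Psmc2, Psmd1, Psmd3, Psmd12 and Psmd9) and for 1 that was lower (Psmg4), where 9.21% and 5.00% of all genes did so. Unscaled FPKM also favour higher values in ATG-GGN100dCT, so the 7 need not all separate on the scale of the test. The median log2 fold change was 0.022 over the members and 0.006 over all genes, and 25 of 43 were above 0. Without ATG-GGC11 replicate 1 the median of the members was 0.001, with 22 above 0. Intervals lay within 1.5-fold for 41 members, against 61.7% of all genes.

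**Figure D3:**
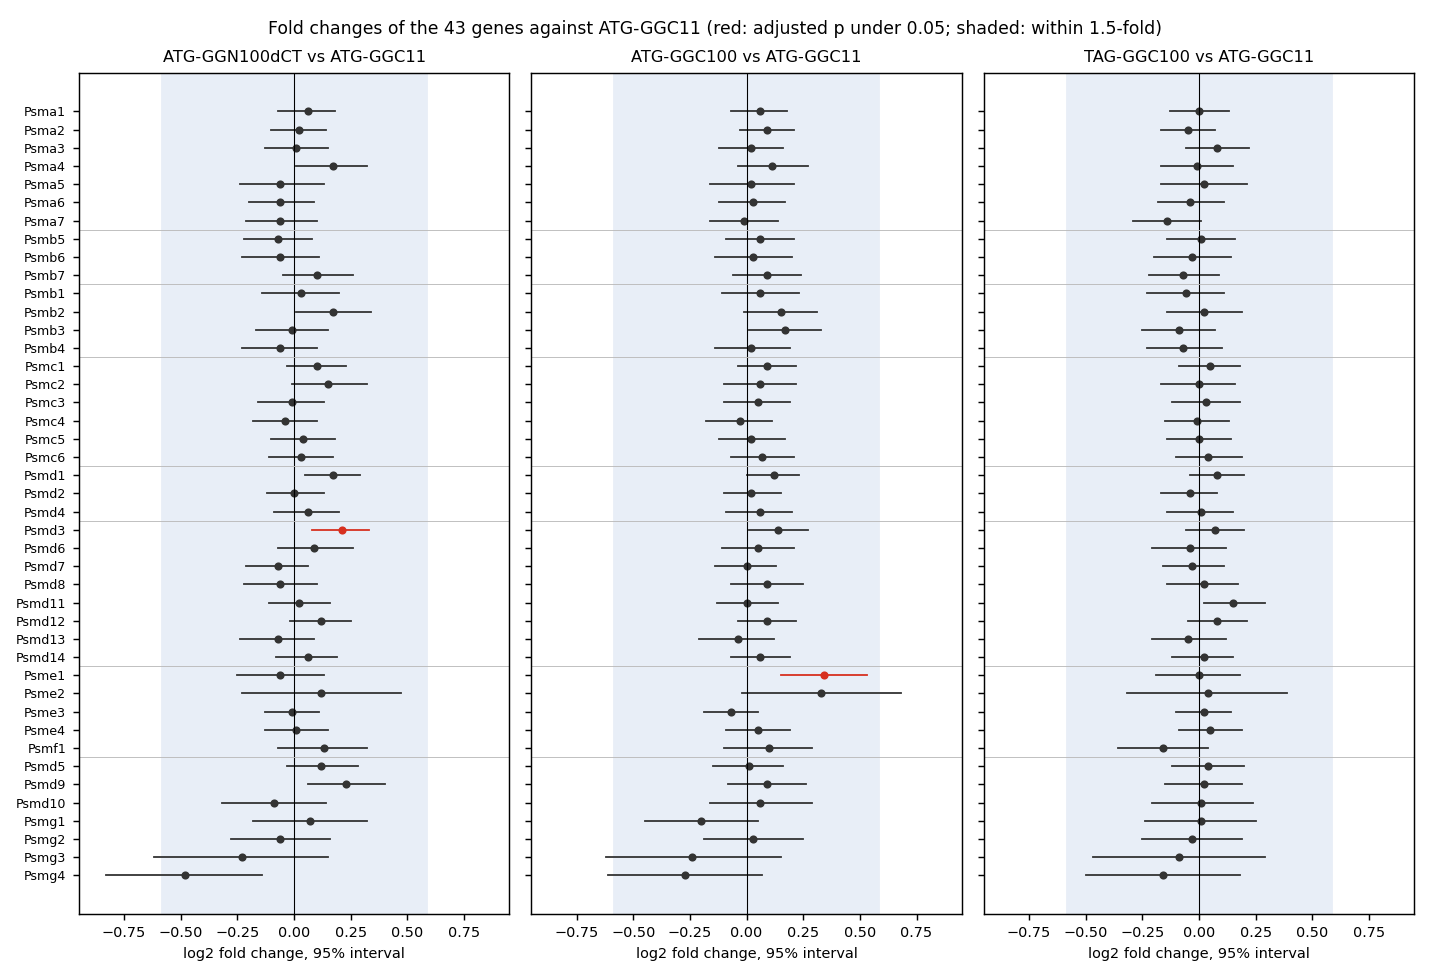
Log2 fold change of each of the 43 genes against ATG-GGC11, with 95% intervals, for ATG-GGN100dCT (left), ATG-GGC100 (middle) and TAG-GGC100 (right); shading marks 1.5-fold in either direction and red marks an adjusted p under 0.05. Psmd3 is red on the left and Psme1 in the middle; 41, 40 and 43 intervals lie within the shading from left to right.

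Between the long constructs, ATG-GGC100 against TAG-GGC100 had 2 members called higher, against 4.05% of all genes, and 0 lower, against 3.39%. In all, 5 members (11.6%) were higher and 1 (2.33%) lower at an unadjusted p under 0.05, against 12% and 11.3% of all genes. The median log2 fold change was 0.052 over the members and 0.003 over all genes, with 34 of 43 above 0 (79.1%). It was 0.1 without TAG-GGC100 replicate 4 and 0.016 without TAG-GGC100 replicate 2, where 23 were above 0. ATG-GGN100dCT against TAG-GGC100 had 0 members called in either direction by edgeR and DESeq2, against 4.30% of all genes higher and 4.40% lower, with 5 (11.6%) higher and 0 lower at an unadjusted p under 0.05, against 12.5% of all genes in each direction. Its median was 0.036 over the members and 0.008 over all genes, and it was 0.078 without TAG-GGC100 replicate 4 and -0.015 without TAG-GGC100 replicate 2. ATG-GGN100dCT against ATG-GGC100 had 0 members called higher, against 0.857% of all genes, and 1 lower, against 1.19%. At an unadjusted p under 0.05, 1 (2.33%) was higher and 2 (4.65%) were lower, against 8.36% and 8.25% of all genes, and the median was -0.008 over the members and -0.003 over all genes, with a range of -0.038 to 0.003 when single libraries were left out.

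The sizes were small throughout. The median absolute log2 fold change over the members ran from 0.0361 for TAG-GGC100 against ATG-GGC11 to 0.071 for ATG-GGN100dCT against TAG-GGC100, where all genes had 0.0945 and 0.16. The 95% interval reached a median of 0.153 on the log2 scale to either side of the estimate for members in TAG-GGC100 against ATG-GGC11, and 0.26 for all genes. All genes include many with lower expression and more spread (median BCV 0.113, against 0.0763 for the members). Fold changes of other genes of like level were not compared. The smaller changes, narrower intervals and larger shares within 1.5-fold therefore need not be particular to the members. An interval that includes 0 does not show equal levels, but it bounds the difference: no member's interval in that comparison reached beyond 1.42-fold, and none in ATG-GGN100dCT against ATG-GGC11 reached beyond 1.78-fold.

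**Figure D4:**
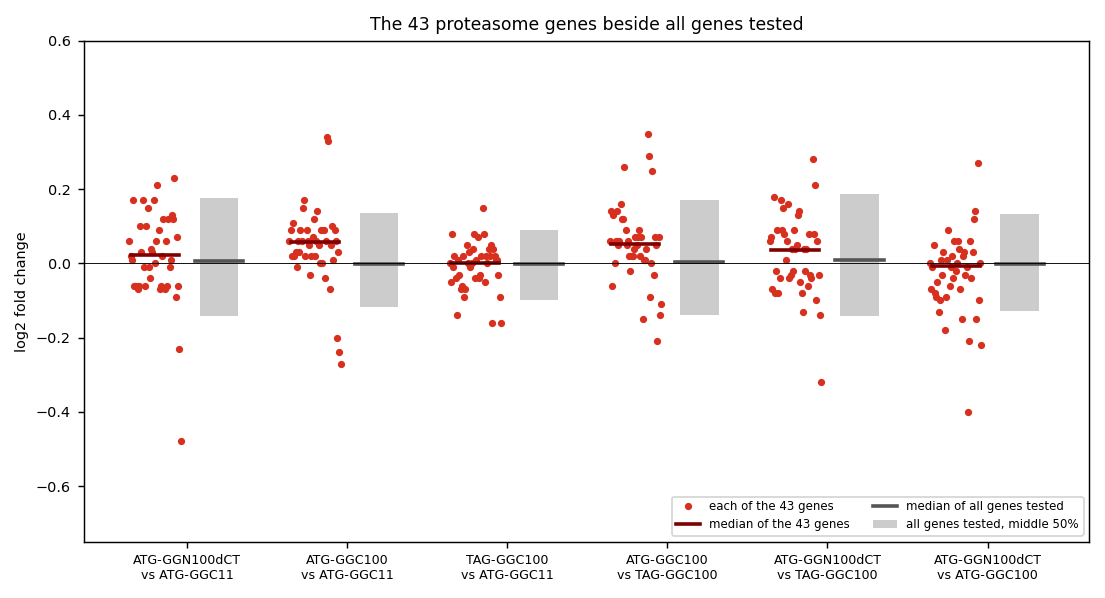
Log2 fold changes of the 43 genes (red points, dark red line at their median) beside all genes tested (grey bar for the middle 50%, line at the median) in the 6 comparisons. The median of the members is highest, at 0.057, for ATG-GGC100 against ATG-GGC11, and the extremes are Psmg4 at -0.48 and Psme1 at 0.35.

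In each direction of a comparison, edgeR called 0% to 4.40% of all genes, and 3.43% to 12.5% had an unadjusted p under 0.05. At such shares a part of few genes is likely to have 0 calls, so a count of 0 sets no part apart. The alpha ring, which gates entry to the core, had 0 of 7 genes called in any comparison. DESeq2 called 0 as well. At an unadjusted p under 0.05, 1 gene was higher in ATG-GGC100 than in TAG-GGC100 (Psma2), and 1 in ATG-GGN100dCT than in ATG-GGC11 and in TAG-GGC100 (Psma4 both times), with 0 in the other comparisons. Psma4 was at 30.71, 30.36, 32.33 and 32.45 FPKM in ATG-GGN100dCT against 26.18, 26.89, 27.64 and 28.23 FPKM in ATG-GGC11 (log2 fold change 0.17 ± 0.076, adjusted p = 0.187). These ranges did not overlap, but the adjusted p missed the threshold. Psma7 stood at 24.2 ± 2.42 FPKM in TAG-GGC100 and 26.6 ± 0.725 FPKM in ATG-GGC11 (SD, n = 4 each; log2 fold change -0.14 ± 0.072, adjusted p = 0.759), where its TAG-GGC100 libraries ran from 21.67 to 27.4 FPKM and overlapped the others.

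Of the 3 catalytic genes, 0 were called in any comparison by edgeR or DESeq2, and 1, Psmb7, had an unadjusted p under 0.05, in ATG-GGC100 and in ATG-GGN100dCT against TAG-GGC100. Psmb5, the chymotrypsin-like subunit, had 58.63, 67.22, 63.11 and 66.42 FPKM in ATG-GGN100dCT, 69.59, 70.68, 74.81 and 63.77 FPKM in ATG-GGC100, 60.62, 65.04, 62.39 and 73.77 FPKM in TAG-GGC100 and 61.7, 61.57, 69.3 and 67.58 FPKM in ATG-GGC11. All 4 groups overlapped. Against ATG-GGC11, its log2 fold change was -0.07 ± 0.073 for ATG-GGN100dCT (adjusted p = 0.597), 0.06 ± 0.072 for ATG-GGC100 (adjusted p = 0.748) and 0.01 ± 0.072 for TAG-GGC100 (adjusted p = 0.999). Psmb6, the caspase-like subunit, averaged 38.3 ± 2.32, 41 ± 2.98, 38.3 ± 5.21 and 38.9 ± 2.2 FPKM in the same order of groups. Psmb7, the trypsin-like subunit, averaged 22.7 ± 1.37, 22.5 ± 1.91, 19.6 ± 1.87 and 20.5 ± 0.789 FPKM, with its lowest adjusted p = 0.153 for ATG-GGN100dCT against TAG-GGC100 (0.17 ± 0.073).

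Of the 4 non-catalytic beta genes, Psmb3 (ENSMUSG00000069744, chromosome 11, 97594225 to 97604326, plus strand in the deposited table) was called, in ATG-GGC100 against TAG-GGC100 only. It had 23.98, 27.24, 26.29 and 21.39 FPKM in ATG-GGC100 and 20.74, 19.26, 18.44 and 22.07 FPKM in TAG-GGC100, a log2 fold change of 0.26 ± 0.077 (edgeR adjusted p = 0.0463). The ranges overlapped, since ATG-GGC100 replicate 4 lay below TAG-GGC100 replicate 4, the libraries in which most members were low and high. In ATG-GGN100dCT it had 20.54, 21.68, 21.06 and 24.21 FPKM and in ATG-GGC11 21.63, 19.93, 21.84 and 21.98 FPKM, and no other comparison passed the test; ATG-GGC100 against ATG-GGC11 gave 0.17 ± 0.077 (adjusted p = 0.268). The call held under 10 of 25 alternatives, with an adjusted p of up to 0.159. It was lost with median-ratio scaling, with replicate number as a block and with only the 8 libraries compared. Leaving out any 1 of ATG-GGN100dCT replicates 1 and 2, ATG-GGC100 replicates 1, 2 and 3, TAG-GGC100 replicates 1, 2 and 3 or the ATG-GGC11 libraries also lost it.

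The ATPase ring of the 19S base had 0 of 6 genes called in any comparison by edgeR or DESeq2, and 0 with an unadjusted p under 0.05. Psmc1 had 82.37, 80.19, 85.58 and 82.84 FPKM in ATG-GGN100dCT against 70.21, 76.12, 75.55 and 77.69 FPKM in ATG-GGC11, with no overlap (log2 fold change 0.1 ± 0.064, adjusted p = 0.344). Psmc4 averaged 36.5 ± 1.63, 36.7 ± 1.94, 36.3 ± 2.93 and 36.5 ± 2.02 FPKM in ATG-GGN100dCT, ATG-GGC100, TAG-GGC100 and ATG-GGC11, and its log2 fold changes lay between -0.04 and -0.01. The top gene, Psmc5, averaged 112 ± 7.2, 110 ± 5.04, 106 ± 10.6 and 105 ± 5.39 FPKM in the same order.

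Among the scaffold genes of the base, Psmd1 (ENSMUSG00000026229, chromosome 1, 85992109 to 86066873, plus strand) was lowest in ATG-GGC11. It had 18.96, 17.13, 19.86 and 19.54 FPKM in ATG-GGN100dCT, 18.37, 17.94, 18.94 and 17.4 FPKM in ATG-GGC100, 17.79, 16.84, 17.07 and 17.23 FPKM in TAG-GGC100 and 15.51, 16.53, 16.42 and 16.64 FPKM in ATG-GGC11. All ATG-GGC11 libraries lay below all libraries of the other groups. The log2 fold changes against ATG-GGC11 were 0.17 ± 0.056 for ATG-GGN100dCT (adjusted p = 0.0695), 0.12 ± 0.056 for ATG-GGC100 (adjusted p = 0.304) and 0.08 ± 0.056 for TAG-GGC100 (adjusted p = 0.875), with the same ATG-GGC11 libraries in each. None passed the test. The first of them passed under 6 of the alternatives: DESeq2 (adjusted p = 0.025), library totals as scaling (0.0286), at least 1 FPKM in 4 libraries (0.0441), limma on log2(FPKM + 1) (0.0318) and on log2(FPKM + 0.1) (0.0325), and edgeR without ATG-GGN100dCT replicate 2 (0.0178). The other scaffold gene, Psmd2, averaged 46.3 ± 3.36, 47 ± 1.58, 43.6 ± 3.15 and 44.9 ± 1.32 FPKM in the same order. The ubiquitin receptor gene Psmd4 averaged 33.7 ± 0.579, 33.6 ± 2.26, 31.6 ± 3.51 and 31.4 ± 1.46 FPKM, and neither was called.

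In the lid, Psmd3 (ENSMUSG00000017221, chromosome 11, 98573380 to 98586805, plus strand), a structural subunit, was called in ATG-GGN100dCT against ATG-GGC11. It had 26.72, 25.39, 27.42 and 26.33 FPKM in ATG-GGN100dCT and 20.83, 22.95, 23.23 and 22.11 FPKM in ATG-GGC11. The ranges did not overlap, and the log2 fold change was 0.21 ± 0.061 (edgeR adjusted p = 0.0478). ATG-GGC100 lay at 26.64, 26.38, 25.34 and 22.88 FPKM (0.14 ± 0.061 against ATG-GGC11, adjusted p = 0.237) and TAG-GGC100 at 23.63, 23, 22.4 and 24.9 FPKM (0.07 ± 0.061, adjusted p = 0.917). The call held under 11 of 25 alternatives, with an adjusted p of up to 0.14. It was lost without filtering low counts, with replicate number as a block and with only the 8 libraries compared. Leaving out any 1 of ATG-GGN100dCT replicates 1, 3 and 4, ATG-GGC100 replicate 3, TAG-GGC100 replicates 1, 2 and 3 or the ATG-GGC11 libraries also lost it. The other 7 lid genes were not called in any comparison, among them Psmd14, the protease that cuts ubiquitin chains off substrates, at 28.2 ± 1.04, 28.3 ± 1.17, 26.8 ± 2.69 and 26.3 ± 0.63 FPKM in ATG-GGN100dCT, ATG-GGC100, TAG-GGC100 and ATG-GGC11.

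The activators held the most repeated call. Psme1 (ENSMUSG00000022216, chromosome 14, 55815580 to 55818986, plus strand) encodes the alpha subunit of PA28, a ring that opens the core without ubiquitin and is induced by interferon. It had 10.76, 11.21, 9.87 and 10.52 FPKM in ATG-GGN100dCT, 14.1, 15.81, 13.92 and 12.14 FPKM in ATG-GGC100, 11.06, 10.17, 10.31 and 11.36 FPKM in TAG-GGC100 and 9.48, 11.81, 11.77 and 9.77 FPKM in ATG-GGC11. In FPKM, every ATG-GGC100 library lay above all 12 others, the closest at 12.14 against 11.81 FPKM. The scaling factors of the test were 1 to 1.03 in ATG-GGC100 and 0.973 to 0.992 in ATG-GGC11. The factor was 1.02 for ATG-GGC100 replicate 4, and 0.989 and 0.984 for ATG-GGC11 replicates 2 and 3. Divided by these rounded factors, 12.14, 11.81 and 11.77 FPKM come to about the same level. The separation is therefore shown for FPKM only. Psme1 rose in ATG-GGC100 by 0.34 ± 0.089 on the log2 scale against ATG-GGC11 (edgeR adjusted p = 0.0373) and by 0.35 ± 0.09 against TAG-GGC100 (adjusted p = 0.0237). It was lower in ATG-GGN100dCT than in ATG-GGC100, with a log2 fold change of -0.40 ± 0.09 (adjusted p = 0.0212). These 3 calls share the ATG-GGC100 libraries.

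The direction of Psme1 was kept in all 25 alternatives of each comparison, at 0.28 to 0.4 against ATG-GGC11, 0.28 to 0.41 against TAG-GGC100 and -0.46 to -0.34 for ATG-GGN100dCT against ATG-GGC100. Its call rested on single libraries. Against ATG-GGC11 it was lost without any 1 of ATG-GGC100 replicates 1, 2 and 3 and ATG-GGC11 replicates 1 and 4 (adjusted p up to 0.141 over all alternatives). There it was also lost with replicate number as a block and with only the 8 libraries compared. Against TAG-GGC100 it was lost without any 1 of ATG-GGC100 replicates 1, 2 and 3 and TAG-GGC100 replicates 2 and 3 (up to 0.094). For ATG-GGN100dCT against ATG-GGC100 it was lost without any 1 of ATG-GGN100dCT replicates 3 and 4 and ATG-GGC100 replicates 1, 2 and 3 (up to 0.0644). Using only the 8 libraries compared lost this call as well. Psme1 overlaps the gene Emc9 on the other strand, whose reads cannot be told apart from it without strand; Emc9 stood at 6.89 ± 0.615 FPKM in ATG-GGC100 and 7.08 ± 0.356 FPKM in ATG-GGC11 (SD, n = 4 each; log2 fold change -0.08 ± 0.098, adjusted p = 0.729).

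The partner of Psme1 in the PA28 ring, Psme2 (ENSMUSG00000079197, chromosome 14, 55824898 to 55828570, minus strand), had a similar fold change with a wider error. It had 4.71, 3.6, 3.28 and 3.79 FPKM in ATG-GGN100dCT, 4.26, 5.15, 4.69 and 3.7 FPKM in ATG-GGC100, 3.5, 3.19, 3.51 and 3.97 FPKM in TAG-GGC100 and 3.24, 3.02, 4.79 and 2.65 FPKM in ATG-GGC11. The groups overlapped, and the log2 fold change of ATG-GGC100 was 0.33 ± 0.17 against ATG-GGC11 (adjusted p = 0.334) and 0.29 ± 0.17 against TAG-GGC100 (adjusted p = 0.308). Its 60 to 152 counts a library make it one of the least precise members. Psme2b, a gene on chromosome 11 whose symbol places it beside Psme2 and which was chosen after its values were seen, may share reads with it. Psme2b had 9.75, 12.7, 11.07 and 10.97 FPKM in ATG-GGC100 against 9.59, 6.34, 7.31 and 7.28 FPKM in TAG-GGC100 and passed the test (0.51 ± 0.15, adjusted p = 0.0479). That call held under 12 of 25 alternatives (adjusted p up to 0.17) and was lost without any 1 of ATG-GGN100dCT replicate 4, ATG-GGC100 replicates 2, 3 and 4, TAG-GGC100 replicates 2, 3 and 4, and the ATG-GGC11 libraries. Replicate number as a block and using only the 8 libraries compared lost it too. Against ATG-GGC11, Psme2b did not pass (0.29 ± 0.15, adjusted p = 0.348). Values of both genes are therefore uncertain one by one.

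The other activators and the inhibitor were not called. Psme3, the nuclear PA28 gamma, averaged 35.7 ± 1.36, 34.4 ± 1.83, 35.5 ± 0.595 and 35 ± 1.48 FPKM in ATG-GGN100dCT, ATG-GGC100, TAG-GGC100 and ATG-GGC11, and had the narrowest range of all members. Psme4, the PA200 activator, averaged 7.86 ± 0.532, 8.06 ± 0.351, 7.86 ± 0.687 and 7.56 ± 0.282 FPKM. Psmf1, which encodes the PI31 protein known as an inhibitor of the core in the test tube, had 4.61, 5.37, 6.05 and 6.16 FPKM in ATG-GGN100dCT against 4.86, 4.59, 3.96 and 4.33 FPKM in TAG-GGC100 (0.28 ± 0.095, adjusted p = 0.0684), with overlapping ranges. It passed the test without ATG-GGN100dCT replicate 1 (0.35, adjusted p = 0.0285) and with library totals as scaling (0.32, adjusted p = 0.0446).

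The 7 assembly chaperones had 0 called genes in any comparison by edgeR and DESeq2. At an unadjusted p under 0.05, 1 was higher (Psmd9) and 1 lower (Psmg4) in ATG-GGN100dCT than in ATG-GGC11, Psmd9 was higher in ATG-GGN100dCT than in TAG-GGC100, and Psmg1 was higher in ATG-GGN100dCT than in ATG-GGC100. Psmg4, a chaperone of the alpha ring, had 5.46, 6.14, 6.03 and 4.89 FPKM in ATG-GGN100dCT and 7.05, 7.25, 7.98 and 8.42 FPKM in ATG-GGC11. The ranges did not overlap, and the log2 fold change was the most negative of any member, -0.48 ± 0.17 (adjusted p = 0.0831, and 0.049 with limma on log2(FPKM + 1)). Psmd9, a chaperone of the base, had 3.91, 3.9, 4.8 and 4.3 FPKM in ATG-GGN100dCT against 3.42, 3.54, 3.62 and 3.43 FPKM in ATG-GGC11, again with no overlap (0.23 ± 0.08, adjusted p = 0.0892, and 0.0464 with library totals as scaling). The base chaperones Psmd5 and Psmd10 averaged 7.92 ± 1.07 and 9 ± 1.07 FPKM in ATG-GGN100dCT, against 7.05 ± 0.143 and 9.28 ± 0.256 FPKM in ATG-GGC11. Psmg1 and Psmg2, which pair to build the alpha ring, averaged 6.62 ± 0.205 and 9.2 ± 0.499 FPKM in ATG-GGC100, against 7.38 ± 0.918 and 8.72 ± 1.06 FPKM in ATG-GGC11.

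The interferon-induced counterparts of the catalytic genes were far lower than the constitutive ones, except Psmb10. Psmb8, which replaces Psmb5, had 1.13, 1.32, 0.58 and 1.17 FPKM in ATG-GGN100dCT, 1.67, 1.52, 1.91 and 1.66 FPKM in ATG-GGC100, 1.04, 0.66, 0.76 and 1.17 FPKM in TAG-GGC100 and 0.4, 0.7, 1.17 and 0.62 FPKM in ATG-GGC11. All ATG-GGC100 libraries lay above all others. It rose in ATG-GGC100 by 1.17 ± 0.27 on the log2 scale against ATG-GGC11 (edgeR adjusted p = 0.017; up to 0.062 without any 1 of ATG-GGC100 replicate 3 and ATG-GGC11 replicates 1, 2 and 4, where the call was lost). The ratio of Psmb8 to Psmb5 FPKM was 0.0242 ± 0.00202 in ATG-GGC100 and 0.011 ± 0.00443 in ATG-GGC11 (SD, n = 4 each). Against TAG-GGC100, Psmb8 rose by 0.87 ± 0.26 (adjusted p = 0.0487), a call kept under 12 of 25 alternatives and lost without any 1 of the ATG-GGC100 libraries, TAG-GGC100 replicates 1, 2 and 3, ATG-GGN100dCT replicates 1 and 4 and ATG-GGC11 replicates 2 and 4 (adjusted p up to 0.167). Replicate number as a block and limma on log2(FPKM + 0.1) lost it too.

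Psmb9, which replaces Psmb6, had 0.3, 0.27, 0.21 and 0.06 FPKM in ATG-GGN100dCT and 0.49, 0.6, 0.64 and 0.65 FPKM in ATG-GGC100, without overlap (-1.49 ± 0.3, adjusted p = 0.0121). These rest on few reads, 3 to 18 counts a library in ATG-GGN100dCT and 31 to 43 in ATG-GGC100. The call held under 23 of 24 alternatives and was lost in edgeR with only the 8 libraries compared (adjusted p = 0.0691). In TAG-GGC100 it had 0.28, 0.33, 0.31 and 0.27 FPKM (0.96 ± 0.29 for ATG-GGC100 against it, edgeR adjusted p = 0.0497). That call held under 8 of 24 alternatives (adjusted p up to 0.116). It was lost without any 1 of the ATG-GGC100, TAG-GGC100 or ATG-GGC11 libraries. Median-ratio scaling, no filter on low counts, replicate number as a block and limma on log2(FPKM + 0.1) lost it too. In ATG-GGC11 Psmb9 had 0.27, 0.39, 0.46 and 0.32 FPKM (0.68 ± 0.28 for ATG-GGC100, adjusted p = 0.219). ATG-GGN100dCT lay below ATG-GGC11 for Psmb9, with a log2 fold change of -0.81 and an unadjusted edgeR p under 0.05, but without a call. Psmb10, which replaces Psmb7, averaged 13.4 FPKM in ATG-GGC100 and 14.7 FPKM in ATG-GGC11 (-0.17 ± 0.12, adjusted p = 0.508) and was not called in any comparison. Its ratio to Psmb7 was 0.598 ± 0.0651 in ATG-GGC100 and 0.717 ± 0.0328 in ATG-GGC11.

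**Figure D5:**
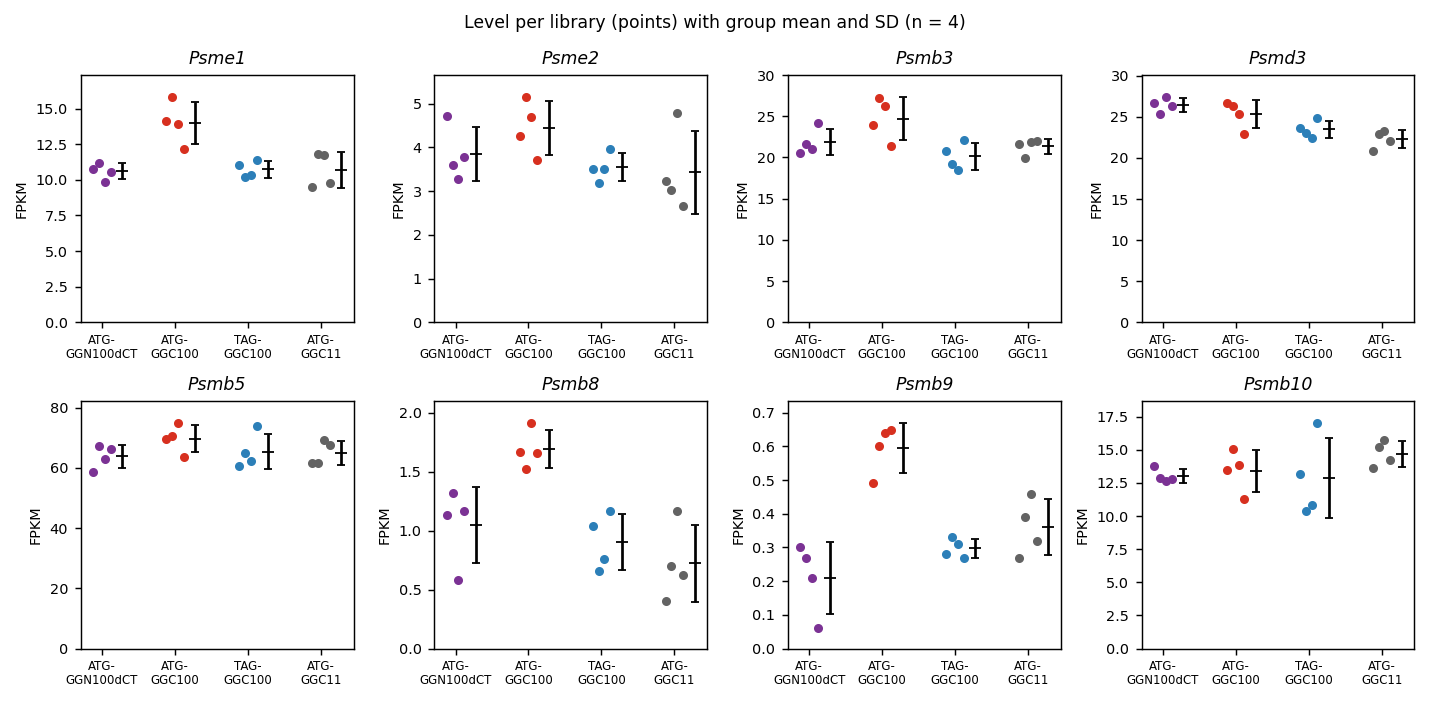
FPKM per library (points) with the group mean and SD (n = 4) for the members that were called, Psme2 and Psmb5, and the immunoproteasome genes Psmb8, Psmb9 and Psmb10; each axis starts at 0. Psme1 and Psmb8 are highest in ATG-GGC100, at 12.14 to 15.81 and 1.52 to 1.91 FPKM, while Psmb5 overlaps across the 4 constructs.

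Genes of interferon signalling and of microglia were higher in ATG-GGC100, the group in which Psme1 and Psmb8 rose. Of 20 interferon-stimulated genes, 12 were higher and 0 lower in ATG-GGC100 than in ATG-GGC11 (median 0.939 on the log2 scale), and 14 were higher than in TAG-GGC100. In ATG-GGN100dCT against ATG-GGC11, 8 were higher and 0 lower (median 0.695). Psme1 (-0.06 ± 0.091) and Psmb8 (0.48) were not called there. The summed level of the 20 genes was 130 to 189 FPKM in ATG-GGN100dCT, 244 to 295 FPKM in ATG-GGC100, 137 to 154 FPKM in TAG-GGC100 and 134 to 160 FPKM in ATG-GGC11. Of 13 microglial markers, 11 were higher in ATG-GGC100 than in ATG-GGC11, and their sums were 247 to 380, 500 to 632, 249 to 294 and 251 to 325 FPKM in the same order of groups. No gene of either list was at 0. The part of either list in the values of Psme1 was not tested. Hepatocyte markers were present beside cortical ones in ATG-GGN100dCT, where 5 of 7 tested were higher than in each other group and 0 were at 0, while up to 5 of 8 were at 0 in a library of the other groups. Their sums, to which Ttr and Trf of the brain also count, were 62.8 to 102, 81.6 to 113, 62.3 to 77.6 and 65 to 92.8 FPKM in the same order of groups. Of 5 erythrocyte genes, 0 were higher and 2 lower in ATG-GGN100dCT than in ATG-GGC11, with sums of 8.04 to 47.9 FPKM in ATG-GGN100dCT against 63.5 to 138 FPKM in ATG-GGC11.

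Other cell types also differed between the same groups. Of 8 neuron genes, 0 were called in ATG-GGC100 and 1 was lower in ATG-GGN100dCT than in ATG-GGC11. The neuron sums of ATG-GGC100, 1147 to 1233 FPKM, and ATG-GGN100dCT, 1171 to 1222 FPKM, lay below the 1237 to 1277 FPKM of ATG-GGC11. Of 9 astrocyte genes, 2 were higher and 0 lower in ATG-GGC100 than in ATG-GGC11, and 2 were higher and 4 lower in ATG-GGN100dCT; their sums were 686 to 813 FPKM in ATG-GGN100dCT, 847 to 1032 FPKM in ATG-GGC100, 682 to 710 FPKM in TAG-GGC100 and 704 to 798 FPKM in ATG-GGC11. Of 7 inhibitory neuron genes, 1 was higher and 3 were lower in ATG-GGC100 than in ATG-GGC11, and 0 were higher and 2 lower in ATG-GGN100dCT, with sums of 364 to 394, 350 to 381, 409 to 509 and 438 to 493 FPKM in the same order of groups. Of 6 endothelial genes, 0 were called in ATG-GGC100 and 2 were higher in ATG-GGN100dCT than in ATG-GGC11. The sums of 7 oligodendrocyte genes were 482 to 936, 736 to 913, 666 to 946 and 733 to 1077 FPKM in the same order, and those of 9 genes of striatal projection neurons 319 to 529, 184 to 466, 215 to 606 and 223 to 501 FPKM, and all 4 groups overlapped in both. The part of these cell types in the values of the proteasome genes was not tested.

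Among 12 measured proteasome genes outside the Psm names, 0 rose and 1 fell in ATG-GGC100 against ATG-GGC11. The gene that fell was Midn, whose protein midnolin carries nuclear proteins to the proteasome without ubiquitin. Its log2 fold change was -0.53 ± 0.13 (edgeR adjusted p = 0.0335). That call held under 17 of 25 alternatives (adjusted p up to 0.106). It was lost without a filter on low counts, with replicate number as a block and with only the 8 libraries compared. Leaving out any 1 of ATG-GGC100 replicates 2 and 3 or ATG-GGC11 replicates 1, 2 and 3 also lost it. Midn was also lower in ATG-GGN100dCT than in ATG-GGC11 (-0.66 ± 0.13, adjusted p = 0.00936), where all 25 alternatives kept the call. There the ubiquitin receptor gene Adrm1 was the only one of the 12 to rise (0.26 ± 0.074, adjusted p = 0.0422), a call that held under 12 of 25 alternatives and was lost without any 1 of the ATG-GGN100dCT or ATG-GGC11 libraries, ATG-GGC100 replicate 3 or TAG-GGC100 replicate 2. No filter on low counts, replicate number as a block and using only the 8 libraries compared lost it too. The maturation factor gene Pomp and the small cap subunit gene Sem1 were not called. Pomp stood at 13.8 ± 0.965 FPKM in ATG-GGN100dCT against 16 ± 1.14 FPKM in ATG-GGC11 (-0.25 ± 0.084, adjusted p = 0.0731), and passed without TAG-GGC100 replicate 4 (adjusted p = 0.0238).

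Of 15 ubiquitin genes and genes that deliver substrates, 1 rose and 0 fell in ATG-GGC100 against ATG-GGC11, namely Ufd1, a partner of the unfoldase Vcp (0.27 ± 0.074, adjusted p = 0.0476; lost under 14 of 25 alternatives, including without any 1 of ATG-GGC100 replicates 1, 2 and 3, ATG-GGN100dCT replicates 1 and 4, TAG-GGC100 replicates 1, 2 and 3 or the ATG-GGC11 libraries, up to 0.18). Ufd1 was also called higher in 3 other comparisons. It was higher in ATG-GGN100dCT than in ATG-GGC11 (0.28, adjusted p = 0.0269; kept under 20 of 25 alternatives, lost without any 1 of ATG-GGN100dCT replicates 3 and 4 and ATG-GGC11 replicates 1, 3 and 4, up to 0.0822). It was higher in ATG-GGC100 than in TAG-GGC100 (0.26, adjusted p = 0.039; kept under 17, lost without any 1 of replicates 1, 2 and 3 of either group, up to 0.153), and in ATG-GGN100dCT than in TAG-GGC100 (0.27, adjusted p = 0.0276; kept under 21, lost without any 1 of ATG-GGN100dCT replicates 3 and 4 and TAG-GGC100 replicates 2 and 3, up to 0.0973). For ATG-GGC100 against TAG-GGC100, the Ufd1 call was also lost with replicate number as a block and with only the 8 libraries compared. Ubqln4, of the same list, was called lower by edgeR in ATG-GGN100dCT than in ATG-GGC11 (-0.27). That call held under 13 of 25 alternatives (adjusted p up to 0.116). The polyubiquitin gene Ubb stood at 288 ± 9.5 FPKM in ATG-GGC100 and 267 ± 14.6 FPKM in ATG-GGC11 (0.07 ± 0.06, adjusted p = 0.622). Of 8 genes around Nfe2l1, 1 rose and 0 fell in the same comparison. Nfe2l1 itself had 62.5, 62.69, 61.78 and 63.17 FPKM in ATG-GGC100 and 64.73, 66.7, 71.04 and 69.36 FPKM in ATG-GGC11, without overlap, and was not called by edgeR (-0.16 ± 0.052, adjusted p = 0.0917), while DESeq2 called it lower (adjusted p = 0.00965). The gene that rose was Nfe2l2, the related factor of the oxidative stress response, at 5.18, 5.55, 5.93 and 5.81 FPKM in ATG-GGC100 against 3.93, 4.56, 4.21 and 3.84 FPKM in ATG-GGC11 (0.4 ± 0.093, adjusted p = 0.0194). That call was lost without any 1 of ATG-GGC100 replicate 3 and ATG-GGC11 replicates 1 and 4 (adjusted p up to 0.0769). In ATG-GGN100dCT, Nfe2l2 had 4.55, 3.99, 3.67 and 4.8 FPKM and was lower than in ATG-GGC100 (-0.4 ± 0.093, adjusted p = 0.0262), and this call was lost without any 1 of ATG-GGN100dCT replicate 3 and ATG-GGC100 replicates 3 and 4 (up to 0.0911). Replicate number as a block and using only the 8 libraries compared lost it too. Syvn1, a ubiquitin ligase that acts on Nfe2l1, was lower in ATG-GGC100 (-0.37 ± 0.076, adjusted p = 0.00527) and in ATG-GGN100dCT (-0.36, adjusted p = 0.00933) than in TAG-GGC100, and both calls were kept under all 25 alternatives. Mafk, of the same list, was called higher in ATG-GGN100dCT than in TAG-GGC100 (0.45), which held under 7 of 25 alternatives (adjusted p up to 0.198). For ATG-GGN100dCT against ATG-GGC11, DESeq2 called Nfe2l1 lower (-0.14, adjusted p = 0.028), while edgeR did not.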

How the data were processed

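RNA of mouse cortex was sequenced in bulk in 16 libraries. Per the labels' protocols, total RNA (Trizol, 1 μg) went through oligo(dT) selection, random priming and PCR, without a named strand-marking step. The submitters' processing notes name FastQC 0.10.1, cutadapt 1.9.1 and the builds GRCm39 and mm10; which aligner, counter and annotation were used is not given in the sources used here. Per the file headers, the deposited table holds raw counts per gene and the authors' FPKM values, which recalculation from counts and exonic lengths matched within 0.005. Its coordinates are printed as given; it names no build. Groups came from the construct code in the titles and its key in the series' design. Whether each library is a separate animal is not in the labels, and p-values then reflect only sample-to-sample spread, possibly technical.

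The main test was edgeR 4.0.16 in R 4.3.3 on the counts (TMM scaling, filterByExpr with a minimum count of 10, glmQLFit with robust estimation, glmQLFTest, two-sided), in a single model of the 16 libraries without covariates; the common BCV was 0.112. SE was the log2 fold change over the square root of F. The analysis was tested on simulated data. Alternatives were median-ratio scaling, library totals, other filters, a replicate block, the 8 libraries compared alone, limma 3.58.1 on log2(FPKM + 1) and log2(FPKM + 0.1), DESeq2 1.42.0, each library left out, and symbols with other suffixes (Psmc3ip, Psme3ip1, Psme2b) counted as members. Named genes were the called members, the highest and lowest member, a set list of subunits of each role, and, outside the members, the immunoproteasome, Nfe2l1, Nfe2l2 and other set genes, and called genes of the other lists. Members and lists were chosen with earlier results of these data known. Reads can be shared with overlapping genes at or above 1 FPKM, of which 8 members have at least 1. Of the cell type lists, that of cortical excitatory neurons is not reported here.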

Additional observations from a re-analysis of the deposited data

Results flagged for a closer look

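In 5 of 104 combinations of a named member and a group, 1 library stood apart from the other libraries of its group, where chance alone gives about 1 in 20. In each, the gap to the nearest library, as a share of the group's range, was above Dixon's critical value. Psmd4, a ubiquitin receptor gene of the base, appeared for both libraries in which most members were low or high: it had 30.25 FPKM in ATG-GGC100 replicate 4, where the nearest library had 34.52 FPKM, and 36.83 FPKM in TAG-GGC100 replicate 4, where the nearest had 30.43 FPKM. The lid gene Psmd14 had 26.64 FPKM in ATG-GGN100dCT replicate 3, against 28.61 FPKM in the nearest. The lid gene Psmd11 had 7.91 FPKM in TAG-GGC100 replicate 3, against 8.85 FPKM in the nearest. The beta ring gene Psmb3 had 19.93 FPKM in ATG-GGC11 replicate 2, against 21.63 FPKM in the nearest.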

How the results depend on the processing

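No direction of a called value reversed under any alternative. For ATG-GGC100 against ATG-GGC11, the 1 called member became 0 with the replicate block and with only the 8 libraries compared, and 0 to 1 with single libraries left out. For ATG-GGN100dCT against ATG-GGC11, 1 became 3 with library totals and with either limma fit, 2 with at least 1 FPKM in 4 libraries and with DESeq2, 0 without a filter, with the block and with the 8 libraries alone, and 0 to 2 with single libraries left out. For ATG-GGC100 against TAG-GGC100, 2 became 1 with median-ratio scaling, the block and the 8 libraries alone, and 0 to 2 with single libraries left out. For ATG-GGN100dCT against TAG-GGC100, 0 became 1 with library totals (Psmf1), and 0 to 1 with single libraries left out. For ATG-GGN100dCT against ATG-GGC100, 1 became 0 with the 8 libraries alone, and 0 to 1 with single libraries left out. TAG-GGC100 against ATG-GGC11 stayed at 0 in all of them. Fits of fewer libraries have fewer residual degrees of freedom; otherwise the cause was not tested. The replicate numbers gave little sign of pairing: 3 of 24 correlations of deviations between same-numbered libraries were above 0.1 (range -0.206 to 0.193). Differently numbered libraries were not correlated for reference, so this cannot settle whether the libraries are paired. Of 151 values of named members that missed the threshold, 4 passed it under at least 1 alternative. Library totals as scaling moved the median of all genes to 0.042 for ATG-GGC100 against ATG-GGC11 and that of the members to 0.1. Among the members, low counts limit Psmg4, Psme2 and Psmg3 most, and outside them they limit Psmb9.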
